A study of Mus musculus with 94 samples.

Results

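The genes described here lie on distal mouse chromosome 7 on both sides of Mgmt, the locus that was targeted to make the Mgmt-/- mouse. Of 41 genes listed for this stretch, 39 were measured by 73 probe sets that name 1 gene each, of 18194 genes and 34958 such probe sets on the array. Paox and Foxi2, the other 2, had no probe set of their own. In the RefSeq gene order 18 of the measured genes lay proximal of Mgmt and 21 distal, between 83 annotated genes proximal (Ikzf5) and 96 distal (Syce1). Members were taken for their place on the chromosome, though the list was chosen with earlier results of these data known. Half-brains of male C57BL6 mice, 11 weeks old, were profiled one by one on Affymetrix Mouse Genome 430 2.0 arrays after 1 intraperitoneal dose of MAM or vehicle. The groups were Mgmt-/- with MAM, wild type (wt) with MAM, Mgmt-/- with vehicle and wt with vehicle, each at 6, 24, 48 and 168 hr. That made 16 groups of 6 mice, or 5 for wt with MAM at 168 hr and wt with vehicle at 48 hr, on 94 arrays. MAM, methylazoxymethanol, is a DNA-alkylating cycad toxin and was given as its acetate, and vehicle was dilute acetic acid in saline. Mgmt-/- mice were on a C57BL6 background. The line lacks Mgmt in every cell of the body. Neither the strain of the embryonic stem cells nor the place of the targeted segment within the gene is stated in the labels or methods.

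MGMT repairs O6-methylguanine, a DNA lesion that alkylating agents such as MAM leave, by taking the methyl group onto its own cysteine. A mouse with a targeted gene can differ from wt around the target for reasons other than the lost protein. The inserted cassette can act on nearby promoters, and a stretch of stem cell DNA can stay linked to the target through many backcrosses. Neighbors of the target are therefore set against wt in vehicle as well as in MAM, since such a difference would be present without treatment. A difference from the lost protein could be present without treatment too, so the vehicle comparison cannot tell these apart.

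The promoters of Mgmt and of the 2 neighbors whose averaged difference passed the threshold below, Ebf3 and Echs1, are printed with every CG in capitals, to show how the 3 differ in CG content. Each is the 250 bases before the annotated start in RefSeq (GRCm38.p6), 5′ to 3′ on the strand of the gene.
Mgmt, chr7:136894336-136894585, plus strand: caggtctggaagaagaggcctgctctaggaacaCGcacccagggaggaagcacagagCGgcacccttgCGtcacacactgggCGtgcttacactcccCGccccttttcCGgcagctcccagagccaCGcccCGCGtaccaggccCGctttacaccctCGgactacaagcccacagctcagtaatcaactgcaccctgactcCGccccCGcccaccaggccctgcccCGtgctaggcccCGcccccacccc
Ebf3, chr7:137314446-137314695, minus strand: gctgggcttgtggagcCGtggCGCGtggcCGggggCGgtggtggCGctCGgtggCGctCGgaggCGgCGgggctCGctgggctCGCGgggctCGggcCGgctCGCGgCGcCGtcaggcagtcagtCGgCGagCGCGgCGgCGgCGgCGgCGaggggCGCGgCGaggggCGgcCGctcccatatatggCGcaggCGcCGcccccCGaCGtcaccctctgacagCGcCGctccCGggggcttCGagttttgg
Echs1, chr7:140116422-140116671, minus strand: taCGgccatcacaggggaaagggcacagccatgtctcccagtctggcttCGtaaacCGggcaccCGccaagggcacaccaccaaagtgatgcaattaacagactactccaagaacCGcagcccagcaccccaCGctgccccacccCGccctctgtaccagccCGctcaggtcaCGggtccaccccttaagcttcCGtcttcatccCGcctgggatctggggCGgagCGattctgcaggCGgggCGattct
The Ebf3 window held 43 CG, and 0.712% of all 32851 promoter windows held as many or more. The Mgmt window, the upstream one of 2 for this gene, and the Echs1 window held 15 each, a number reached by 27.3% of windows. Over the 36 members with a window the median was 14 CG in 51 windows, against 6 over all windows. CG on one strand is CG on the other, so both strands are counted. The search describes the letters only.

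The arrays were those of brain, with 1 exception. The mean of 7 neuronal marker genes lay between 11.28 and 11.69 log2 units on Mgmt-/- arrays and between 11.33 and 11.91 on wt arrays. On the array labelled MGMT.MAM.168.343 (Mgmt-/- with MAM at 168 hr) it was 4.87, while 12 liver marker genes averaged 13.26 against 4.33 to 7.07 on all other arrays. That array was left out, so 93 arrays were fitted and that group had 5 mice. Animal numbers fell into 2 sets, taken here to be the 2 laboratories that ran the study, and the set was a term of every fit. The 3′ to 5′ signal ratio of the control probe sets for beta-actin and Gapdh, an index of RNA degradation in log2 units, was higher in Mgmt-/- mice in 8 of 8 combinations of treatment and time. It averaged 0.53 in Mgmt-/- mice (0.36 to 0.79) and 0.36 in wt mice (0.24 to 0.55). The index also differed by treatment. In Mgmt-/- mice it averaged 0.63, 0.63, 0.54 and 0.52 after MAM and 0.43, 0.48, 0.42 and 0.55 in vehicle, in time order. At 6 hr the lowest Mgmt-/- array after MAM, 0.57, lay above the highest in vehicle, 0.46. In wt mice it averaged 0.38, 0.39, 0.33 and 0.44 after MAM and 0.31, 0.33, 0.33 and 0.37 in vehicle. Among marker lists, 5 hypothalamic genes differed by -0.23 log2 units (Mgmt-/- minus wt, lower in 7 of 8 combinations), 6 microglial genes by -0.22 (8 of 8) and 5 cerebellar genes by -0.15 (8 of 8). Oligodendrocyte genes were at -0.13, astrocyte genes at -0.11, choroid plexus genes at -0.09 and endothelial genes at -0.07, each lower in 7 of 8. The medians over the genes of these lists were -0.04, -0.13, -0.09 and -0.12 in the same order. Genes of proliferating cells were at 0.12 (higher in 7 of 8), with a median over the genes of 0.07. Their means were low, at 4.92 in Mgmt-/- mice and 4.80 in wt mice. The 4 striatal genes were at 0.09 (higher in 8 of 8). Liver markers averaged -0.01 and were higher in 3 of 8 combinations, all of them after MAM. In half-brains, fewer cells of a type and less RNA per cell cannot be told apart.

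The targeted gene itself did not separate the genotypes on this array. Over all arrays Mgmt probe set 1421309_at gave 5.09 to 6.45 log2 units in Mgmt-/- mice with a median of 5.70, and 5.49 to 6.21 in wt mice with a median of 5.73. The groups overlapped at every time in both treatments. The difference averaged over the 8 combinations was -0.02 (SE 0.05, 95% confidence interval -0.13 to 0.08, limma adjusted p = 0.72). Since the labels and methods do not state where the probe set lies relative to the deleted segment, it checks neither the labels nor the deletion.

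Most neighbors of Mgmt differed little between the genotypes. A gene was called when a probe set had an adjusted p under 0.05 and a fold change above 1.3, or 0.38 on the log2 scale. In the difference averaged over the 8 combinations 2 of 39 members were called, Ebf3 and Echs1, both lower in Mgmt-/- mice. Over all genes 7.85% were called in either direction and 6.89% lower. The median difference of the 73 probe sets was -0.01, against 0.01 over all probe sets, and the median size was 0.10, against 0.09. An adjusted p under 0.05 without regard to size was reached by 42 of the 73 (57.5%), against 55.6% of all, with 22 higher and 20 lower. In 70 probe sets the difference was under 1.3-fold either way, and in 67 the whole 95% confidence interval was. The sign was the same in both number sets for 55.

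Position relative to Mgmt was described by gene order. Proximal members had a median difference of -0.01 and a largest size of 0.29, with 0 of 18 genes called, while 2 of 21 distal members were called and the median was 0.04. By distance, 1 of 13 genes within 30 annotated genes was called, 0 of 14 at 31 to 60, and 1 of 12 at 61 to 100. Over all genes 7.85% were called, and with so few calls neither sides nor distances can be compared. The median size was 0.10, 0.11 and 0.08 in these bins. Ebf3 lay 4 annotated genes distal of Mgmt and was the nearest measured member. Glrx3, an iron-sulfur cluster chaperone 8 genes distal, had a difference of 0.04 (SE 0.04). Mki67, the Ki-67 proliferation marker 16 genes proximal and the nearest on that side, had 0.10 (SE 0.03, adjusted p = 0.012). Neither came near the 1.3-fold threshold.

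**Figure D1:**
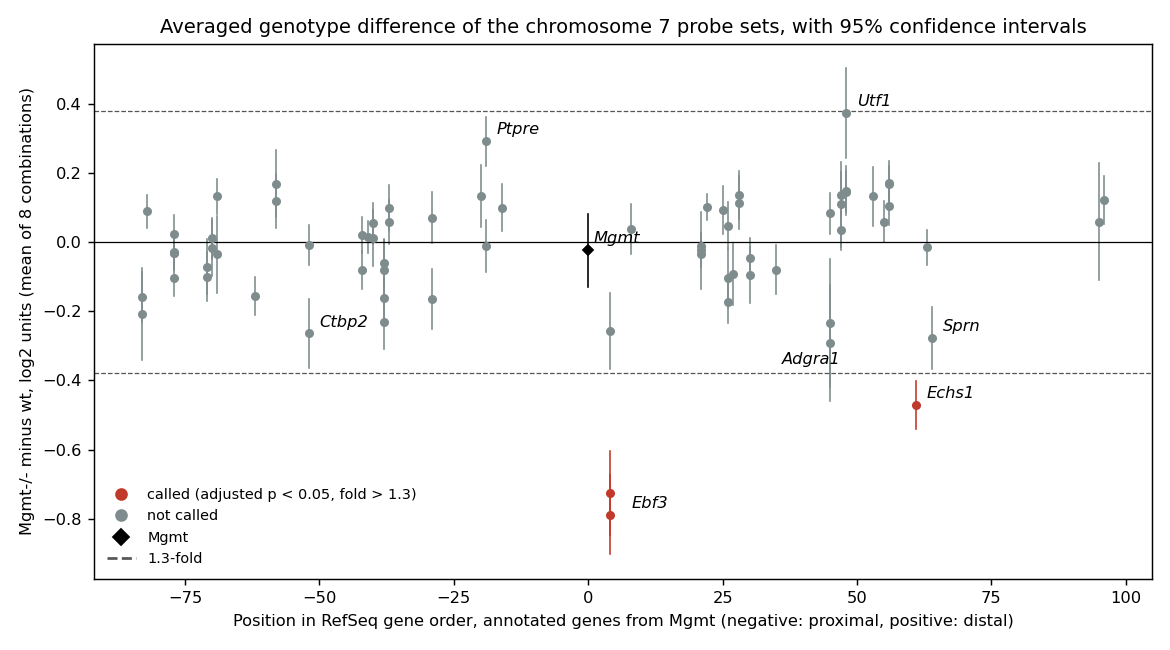
Averaged Mgmt-/- minus wt difference of each member probe set (y axis, log2 units, with 95% confidence intervals) against the position of its gene in RefSeq gene order from Mgmt (x axis, annotated genes). Ebf3 at 4 and Echs1 at 61 genes distal lie below the 1.3-fold line, and the remaining probe sets lie within it on both sides of Mgmt.

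Ebf3 encodes a COE-family transcription factor that acts in the differentiation of neurons. At 6 hr after MAM, probe set 1460666_a_at gave 4.45, 4.77 and 4.96 log2 units (lowest, median, highest) in Mgmt-/- mice and 5.59, 5.93 and 6.23 in wt mice. The highest Mgmt-/- array lay below the lowest wt array. The means were 4.72 ± 0.18 in Mgmt-/- mice and 5.92 ± 0.29 in wt mice (SD, n = 6 each), a difference of -1.2 (SE 0.11, limma adjusted p = 2.2e-08).
At 24 hr after MAM the values were 4.27, 4.87 and 5.0 in Mgmt-/- mice and 4.74, 5.75 and 5.86 in wt mice, a difference of -0.84 (limma adjusted p = 0.0016). One wt array, at 4.74, lay among the Mgmt-/- arrays. At 48 hr after MAM they were 4.53, 4.85 and 5.04 in Mgmt-/- mice and 5.70, 5.91 and 6.12 in wt mice, with no overlap, a difference of -1.10 (limma adjusted p = 4.0e-06).
At 168 hr after MAM the 5 Mgmt-/- mice had 4.5, 4.77, 4.81, 4.85 and 4.89, and the 5 wt mice had 5.12, 5.16, 5.20, 5.30 and 5.36. The arrays were again separate, with a smaller gap. The difference was -0.47 (SE 0.19). The laboratory filter, which set aside probe sets whose effects differed between the number sets, removed the probe set at this time. Without that filter its adjusted p was 0.19.

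The vehicle groups, which had no MAM, differed in the same direction. At 6 hr Ebf3 gave 4.75, 5.03 and 5.51 in Mgmt-/- mice and 5.45, 5.88 and 6.22 in wt mice, a difference of -0.78 (SE 0.11, limma adjusted p = 3.7e-05). At 24 hr it gave 4.67, 5.15 and 5.26 in Mgmt-/- mice and 5.57, 5.88 and 6.28 in wt mice, a difference of -0.86 (limma adjusted p = 0.0020). Only the 24 hr arrays were free of overlap. At 48 hr it gave 4.8, 5.14 and 5.76 in Mgmt-/- mice and 5.26, 5.46, 5.72, 6.00 and 6.06 in the 5 wt mice, a difference of -0.51 (limma adjusted p = 0.043). That call was lost in 12 of 23 fits that left out 1 array, where the adjusted p ranged up to 0.14. At 168 hr it gave 4.43, 5.0 and 5.34 in Mgmt-/- mice and 4.95, 5.43 and 6.22 in wt mice, a difference of -0.55 (SE 0.18), and was set aside by the filter.

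Averaged over the 8 combinations, 1460666_a_at was 0.79 log2 units lower in Mgmt-/- mice (difference -0.79, SE 0.06, 1.73-fold, limma adjusted p = 1.5e-20). It was -0.88 in number set 1 and -0.70 in set 2. A second Ebf3 probe set, 1428349_s_at, gave -0.73 (SE 0.06, adjusted p = 1.3e-17), and the third, 1452751_at, gave -0.26 (SE 0.06, adjusted p = 7.1e-05), under the fold threshold. Both called probe sets are dim, with means of 5.31 and 5.78, and the third is the brightest at 6.20. Where only probe sets with a mean of at least 6 or the brightest probe set of each gene were used, Ebf3 was therefore not called. With the RNA index as a covariate 1460666_a_at was at -0.50 (adjusted p = 1.3e-05) and remained called. In that fit it was called at 6 hr after MAM (-1.08, adjusted p = 0.0033) and in vehicle (-0.72, adjusted p = 0.0023), but at neither 24 nor 48 hr in either treatment. The other COE genes, looked up after these values were seen, lie on other chromosomes and none was called. Ebf1 ranged from -0.33 to 0.09 over 5 probe sets and Ebf2 from -0.07 to 0.25 over 3, and the 1 Ebf4 probe set was at 0.22.

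Echs1, 61 genes distal, encodes the short-chain enoyl-CoA hydratase of mitochondrial fatty acid oxidation. Its probe set 1452341_at was bright. At 6 hr after MAM it gave 8.32, 8.51 and 8.91 in Mgmt-/- mice and 9.12, 9.36 and 9.49 in wt mice. At 24 hr after MAM it gave 8.34, 8.69 and 8.91 in Mgmt-/- mice and 9.14, 9.29 and 9.54 in wt mice. At 48 hr after MAM it gave 8.54, 8.73 and 8.99 in Mgmt-/- mice and 9.16, 9.35 and 9.41 in wt mice. At each of these 3 times every Mgmt-/- array lay below every wt array. At 168 hr after MAM the 5 Mgmt-/- mice had 8.51, 8.60, 8.71, 8.90 and 8.94 and the 5 wt mice had 8.85, 9.09, 9.09, 9.19 and 9.30, so that the groups overlapped. The differences were -0.75, -0.66, -0.58 and -0.37 in time order.

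In vehicle Echs1 was also lower in Mgmt-/- mice, by less. At 6 hr it gave 8.69, 8.90 and 9.05 in Mgmt-/- mice and 9.04, 9.37 and 9.56 in wt mice. At 24 hr it gave 8.63, 8.93 and 8.99 in Mgmt-/- mice and 9.12, 9.28 and 9.39 in wt mice, without overlap. At 48 hr it gave 8.45, 9.01 and 9.16 in Mgmt-/- mice and 9.07, 9.12, 9.27, 9.33 and 9.37 in wt mice. At 168 hr it gave 8.74, 8.94 and 9.06 in Mgmt-/- mice and 9.02, 9.24 and 9.39 in wt mice. The differences were -0.43, -0.38, -0.29 and -0.30 in time order. Only the 48 hr values passed the laboratory filter, in both treatments, and there Echs1 was called after MAM (-0.58, SE 0.10, limma adjusted p = 1.5e-04) and not in vehicle (adjusted p = 0.11). Averaged over the 8 combinations the difference was -0.47 (SE 0.03, 1.39-fold, limma adjusted p = 1.9e-20), with -0.44 in number set 1 and -0.50 in set 2. The test of variation over the 8 combinations gave an adjusted p of 0.14 for Echs1 and 0.21 for Ebf3 1460666_a_at. With the RNA index as a covariate Echs1 was at -0.37 (adjusted p = 7.1e-07), just under the fold threshold and no longer called. In vehicle alone, averaged over the 4 times, Ebf3 was the only member called (-0.67, limma adjusted p = 2.0e-10, 7.32% of all genes called), and Echs1 was at -0.35 (adjusted p = 1.5e-08), just under the fold threshold. In MAM alone 4 members were called, against 10.3% of all genes. Adgra1 (-0.66), Ebf3 (-0.90) and Echs1 (-0.59) were lower and Utf1 (0.40) was higher. When the RNA index was a covariate 2 members, Ebf3 (-0.57) and Echs1 (-0.47), were called in MAM. Adgra1 turned to 0.17 (adjusted p = 0.39) in 1429696_at and to 0.14 (adjusted p = 0.61) in 1459750_s_at, and Utf1 was at 0.34 (adjusted p = 0.091). The share of all genes called was not computed with this covariate, so the smaller count is not read as a result about the members.

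**Figure D2:**
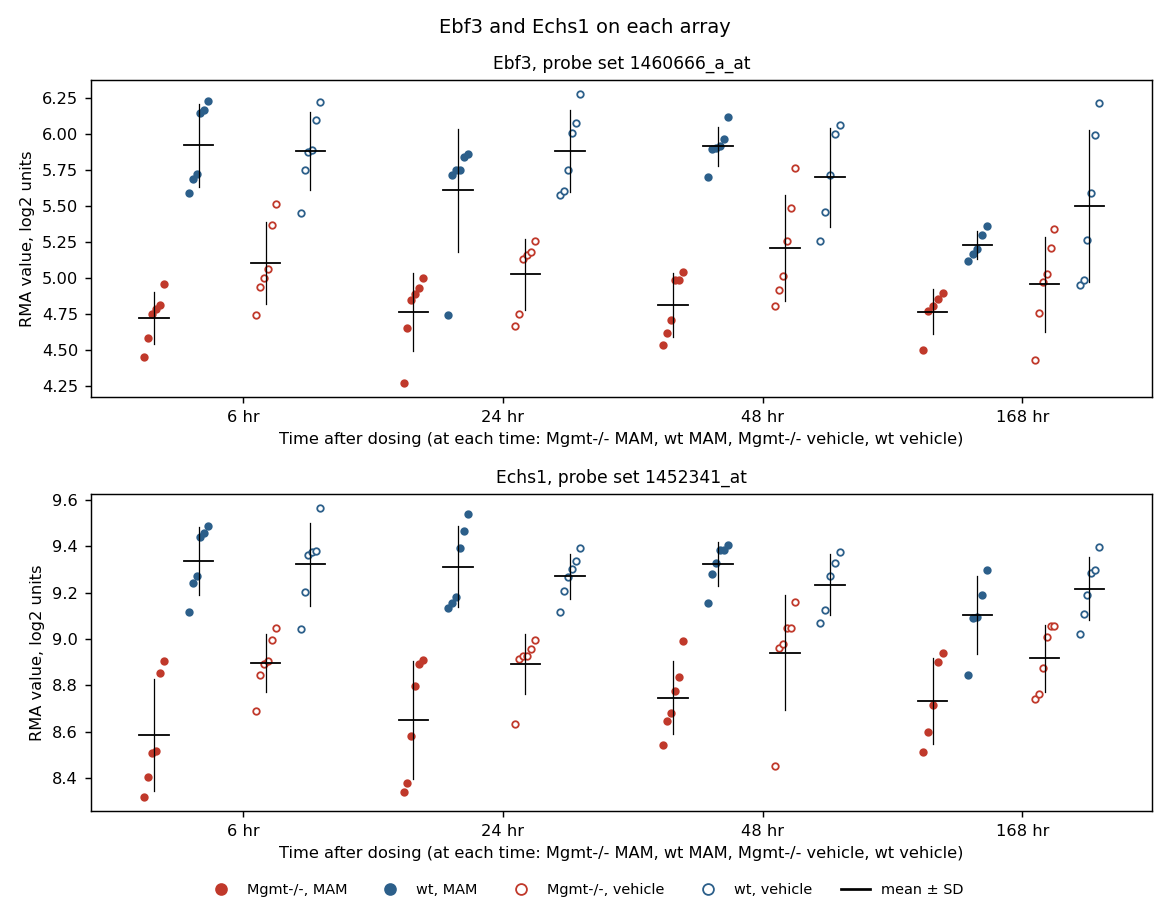
Deposited log2 values of Ebf3 (1460666_a_at) and Echs1 (1452341_at) on each array (y axis), by time after dosing (x axis), with MAM as filled and vehicle as open symbols and bars for the mean and SD. Mgmt-/- means lie below wt means in all 8 pairs of groups for both genes, and the gap is widest for Ebf3 at 6 hr after MAM (4.72 against 5.92).

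Grouped by what the genes do, every class held differences of both signs. Among 6 genes of transcription and chromatin (15 probe sets), 6 probe sets were higher and 7 lower in Mgmt-/- mice at an adjusted p under 0.05, and Ebf3 alone was called. Utf1, a chromatin factor of undifferentiated embryonic cells, had its largest difference in the dim probe set 1443786_at, at 0.37 (SE 0.07, adjusted p = 1.4e-06), just under the fold threshold. Its other 2 probe sets gave 0.15 each. Ctbp2, a transcriptional corepressor, gave -0.26 (SE 0.05, adjusted p = 9.5e-06) with 1434705_at and -0.01 with 1422887_a_at. Ikzf5, a zinc-finger repressor, gave -0.21 and -0.16. The zinc-finger gene Zfp511 gave 0.17, 0.17 and 0.10 in its 3 probe sets, and Pwwp2b, a PWWP-domain chromatin protein, -0.05 and -0.09.

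Of 8 metabolic and mitochondrial genes (9 probe sets), 2 probe sets were higher and 3 lower, and Echs1 alone was called. Bnip3, a mitochondrial protein of cell death and mitophagy, was 0.10 higher (SE 0.02, adjusted p = 4.3e-06), and Acadsb, an acyl-CoA dehydrogenase, 0.09 higher (adjusted p = 0.0013). Oat, ornithine aminotransferase, was at -0.16 (SE 0.03, adjusted p = 2.1e-06). Uros, a heme synthesis enzyme, gave 0.02 and -0.08. Mtg1, a GTPase of the mitochondrial ribosome that lies 2 annotated genes distal of Echs1, was at -0.02 (SE 0.03, adjusted p = 0.63).
Among 5 genes of cell division and chromosomes (9 probe sets) none was called and differences ran from -0.10 to 0.12. Bub3, of the spindle checkpoint, ranged from -0.10 to 0.02 over 5 probe sets. Bccip, a partner of BRCA2, was at 0.02 and the gamma-tubulin complex gene Tubgcp2 at 0.06. Syce1, of the meiotic synaptonemal complex, was at 0.12 with a mean of 4.10, among the dim probe sets.

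The 6 signaling enzymes (12 probe sets) ran from -0.16 to 0.29 with none called. Ptpre, receptor-type tyrosine phosphatase epsilon, had the largest difference of the proximal side, 0.29 in 1418539_a_at (SE 0.04, adjusted p = 4.3e-11, 0.30 in number set 1 and 0.29 in set 2). Its second probe set, 1418540_a_at, was at -0.01 (adjusted p = 0.82). Kndc1, a neuronal exchange factor for Ras proteins, was at 0.14 in its brightest probe set (adjusted p = 3.2e-04). Inpp5a, an inositol phosphate phosphatase, was at -0.08 (adjusted p = 0.057), while Dock1, an exchange factor for Rac, gave -0.16 and 0.07. Stk32c, a kinase, was at -0.09 (adjusted p = 0.069). Ppp2r2d, a regulatory subunit of protein phosphatase 2A, gave -0.04, -0.02 and -0.01.
The 8 genes of receptors, cell surface and matrix (14 probe sets) ran from -0.29 to 0.13 with none called. Sprn, which encodes the prion-like protein Shadoo, was at -0.28 (SE 0.05, adjusted p = 3.0e-07). Chst15, a chondroitin sulfotransferase, gave -0.04 and 0.13, and the orphan receptor Gpr26 -0.10 and -0.07. Clrn3, a tetraspan membrane protein, was at 0.13. The metalloproteinase Adam8 was at 0.13 and Adam12 at 0.06 and 0.10. Cpxm2, a carboxypeptidase-like protein, gave 0.01 and -0.02.
The 6 other members (14 probe sets) ran from -0.23 to 0.17 with none called. Fank1, a testis gene, had -0.23 in a dim probe set (1447495_at) and -0.16, -0.08 and -0.06 in the rest. Dpysl4, a collapsin response mediator of growing axons, gave -0.17, -0.10 and 0.05, Fam53b 0.17 and 0.12, Lrrc27 0.14 and 0.11, Jakmip3 0.09, and the helicase gene Dhx32 0.05 and 0.01. Of the 22 members with several probe sets, 8 had differences of both signs among them.

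Within single time points, 10 members were called in at least 1 of the 8 combinations and 29 in none (25.6%, against 20.8% of all genes). Only Ebf3 and Utf1 were called in more than 1. Counts here are over members with a probe set that passed the laboratory filter. In vehicle, 1 of 27 was called at 6 hr (Ebf3, 5.4% of all genes), 1 of 22 at 24 hr (Ebf3, 6.43%), 2 of 35 at 48 hr (Ebf3 lower and Ptpre higher, 5.28%), and 0 of 36 at 168 hr (0.159%). At 168 hr in vehicle 8 of 59 member probe sets had an unadjusted p under 0.05 in limma. The share of all probe sets at that level was not counted, here or below. Such counts are therefore not read as results about the members. After MAM, 3 of 27 were called at 6 hr (Ebf3 and Sprn lower, Cyp2e1 higher, 10.1% of all genes), 2 of 22 at 24 hr (Ebf3 lower, Utf1 higher, 7.95%), 7 of 35 at 48 hr (14.8%) and 0 of 36 at 168 hr (2.7%). At 168 hr after MAM 9 of 59 member probe sets had an unadjusted p under 0.05 in limma. An ordinary linear model also called 0 at 168 hr in both treatments. The shares of members called lay on both sides of the shares of all genes.

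**Figure D3:**
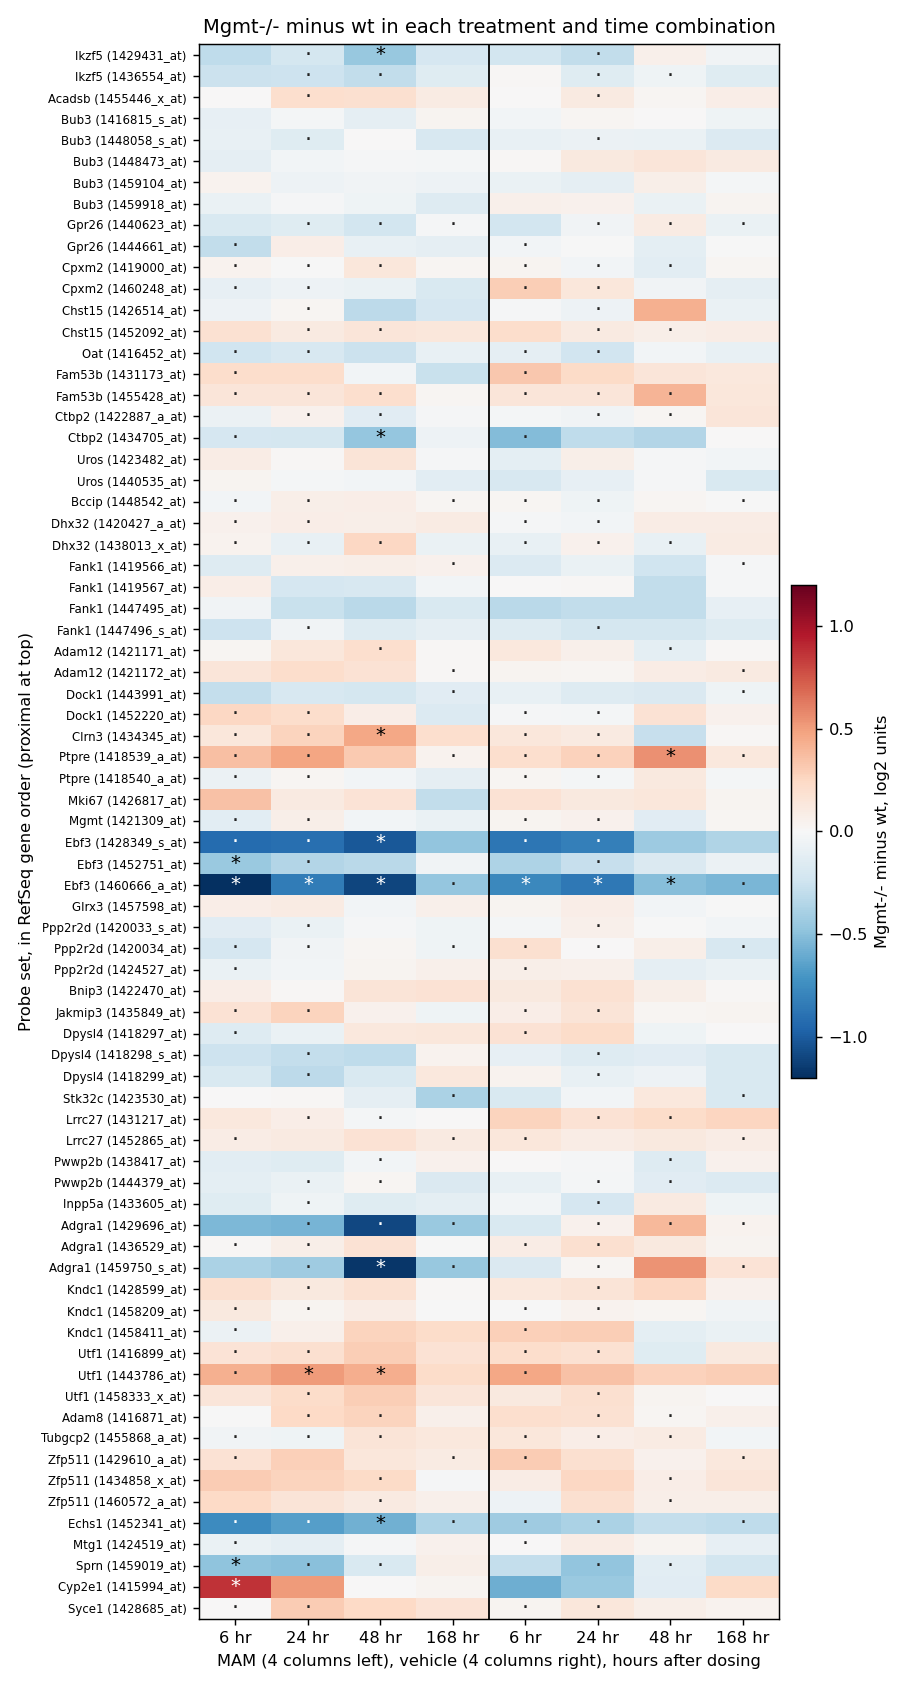
Mgmt-/- minus wt difference of each member probe set and of Mgmt (rows, in gene order with the proximal end at the top) in each treatment and time combination (columns, hours after dosing, MAM left and vehicle right), as color on a log2 scale. Stars mark called probe sets and small dots those set aside by the laboratory filter, and Ebf3 1460666_a_at has stars in 6 of the 8 columns.

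The 7 members called at 48 hr after MAM were Adgra1, Ctbp2, Ebf3, Echs1 and Ikzf5, lower in Mgmt-/- mice, and Clrn3 and Utf1, higher. When the RNA index was a covariate only Ikzf5 was called there (-0.71, limma adjusted p = 0.041), and Ebf3 1460666_a_at was at -0.66 (adjusted p = 0.14). In number set 1 alone, where the laboratory filter does not apply, 2 members were called. The share of all genes called was not computed in either fit, so these smaller counts are not read as results about the members. Ctbp2 (1434705_at) gave 7.67, 8.32 and 8.49 in Mgmt-/- mice and 8.52, 8.70 and 8.91 in wt mice (difference -0.47, SE 0.12, limma adjusted p = 0.0066). Ikzf5 (1429431_at) gave 7.03, 7.51 and 7.66 in Mgmt-/- mice and 7.77, 7.85 and 8.19 in wt mice (difference -0.45, SE 0.11, limma adjusted p = 0.0047). In both genes the arrays of the 2 genotypes were separate.
Utf1 (1443786_at) gave 4.72, 4.78 and 5.04 in Mgmt-/- mice and 4.18, 4.38 and 4.59 in wt mice (difference 0.44, SE 0.14, limma adjusted p = 0.026). Clrn3 (1434345_at) gave 4.85, 4.92 and 5.87 in Mgmt-/- mice and 4.44, 4.67 and 4.75 in wt mice (difference 0.46, SE 0.13, limma adjusted p = 0.013). Both are dim probe sets without overlap at this time. Without the Mgmt-/- array MGMT.MAM.48.337 Clrn3 was at 0.30 and Ikzf5 at -0.38, each under the fold threshold, while the lowest and highest values of Utf1 over fits without 1 array were 0.38 and 0.49 and its call was lost in 3 of 23.
At 24 hr after MAM Utf1 gave 4.81, 5.04 and 5.18 in Mgmt-/- mice and 4.32, 4.45 and 4.92 in wt mice (difference 0.51, SE 0.15, limma adjusted p = 0.032), and that call was lost in 7 of 24 fits without 1 array. Sprn at 6 hr after MAM gave 7.74, 7.86 and 8.16 in Mgmt-/- mice and 8.06, 8.44 and 8.64 in wt mice (difference -0.49, SE 0.12, limma adjusted p = 0.0056). The groups overlapped at both.

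Ptpre was called at 48 hr in vehicle. Probe set 1418539_a_at gave 7.96, 8.07 and 8.30 in Mgmt-/- mice and 7.27, 7.56, 7.61, 7.62 and 7.83 in the 5 wt mice, without overlap (difference 0.55, SE 0.10, limma adjusted p = 0.0016). At 48 hr after MAM it gave 7.81, 8.18 and 8.44 in Mgmt-/- mice and 7.71, 7.86 and 7.89 in wt mice (difference 0.31, SE 0.09, adjusted p = 0.021), under the fold threshold. The 2 groups overlapped there. The difference was positive in all 8 combinations, from 0.04 at 168 hr after MAM to 0.55. Only the 48 hr values of this probe set passed the laboratory filter, in both treatments.

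Adgra1, an orphan adhesion G protein-coupled receptor of brain, lies 45 genes distal and had the largest interaction of genotype and treatment called among members. At 48 hr after MAM probe set 1459750_s_at gave 6.35, 6.80 and 7.81 in Mgmt-/- mice and 7.69, 8.09 and 8.30 in wt mice. In vehicle at 48 hr it gave 7.41, 7.93 and 8.51 in Mgmt-/- mice and 6.47, 7.16, 7.76, 7.81 and 7.97 in the 5 wt mice. One Mgmt-/- array after MAM overlapped the wt range, and both vehicle groups overlapped widely. A second probe set, 1429696_at, gave 5.82, 6.31 and 6.92 after MAM at 48 hr in Mgmt-/- mice and 7.22, 7.45 and 7.68 in wt mice, without overlap, but was set aside there by the laboratory filter (difference -1.09, SE 0.17).
The genotype difference was -1.17 after MAM (SE 0.21, limma adjusted p = 4.3e-04) and 0.54 in vehicle (SE 0.23, adjusted p = 0.19), and the interaction, the difference between these, was -1.71 (SE 0.31, limma adjusted p = 0.0082). MAM against vehicle in Mgmt-/- mice was -1.05 (SE 0.21, limma adjusted p = 0.018). The averaged genotype difference depended on the number set. Probe set 1429696_at gave -0.74 in set 1 and 0.13 in set 2 (set 2 minus set 1 0.87, limma adjusted p = 1.7e-06), and 1459750_s_at gave -0.60 in set 1 and 0.11 in set 2 (0.71, adjusted p = 0.0012). The third probe set, 1436529_at, gave 0.08. With the RNA index as a covariate the averaged differences of the first pair were 0.42 and 0.40, the opposite sign, and both were called. The genotype difference of 1459750_s_at at 48 hr after MAM was -0.60 in that fit (adjusted p = 0.49), and its interaction -1.39 (adjusted p = 0.091), neither of them called. Ppp2r2d 1420034_at was the other member called for a difference between the number sets, at 0.21 in set 1 and -0.24 in set 2 (-0.45, adjusted p = 4.8e-04). That made 2 of 39 members, against 5.91% of all genes.

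**Figure D4:**
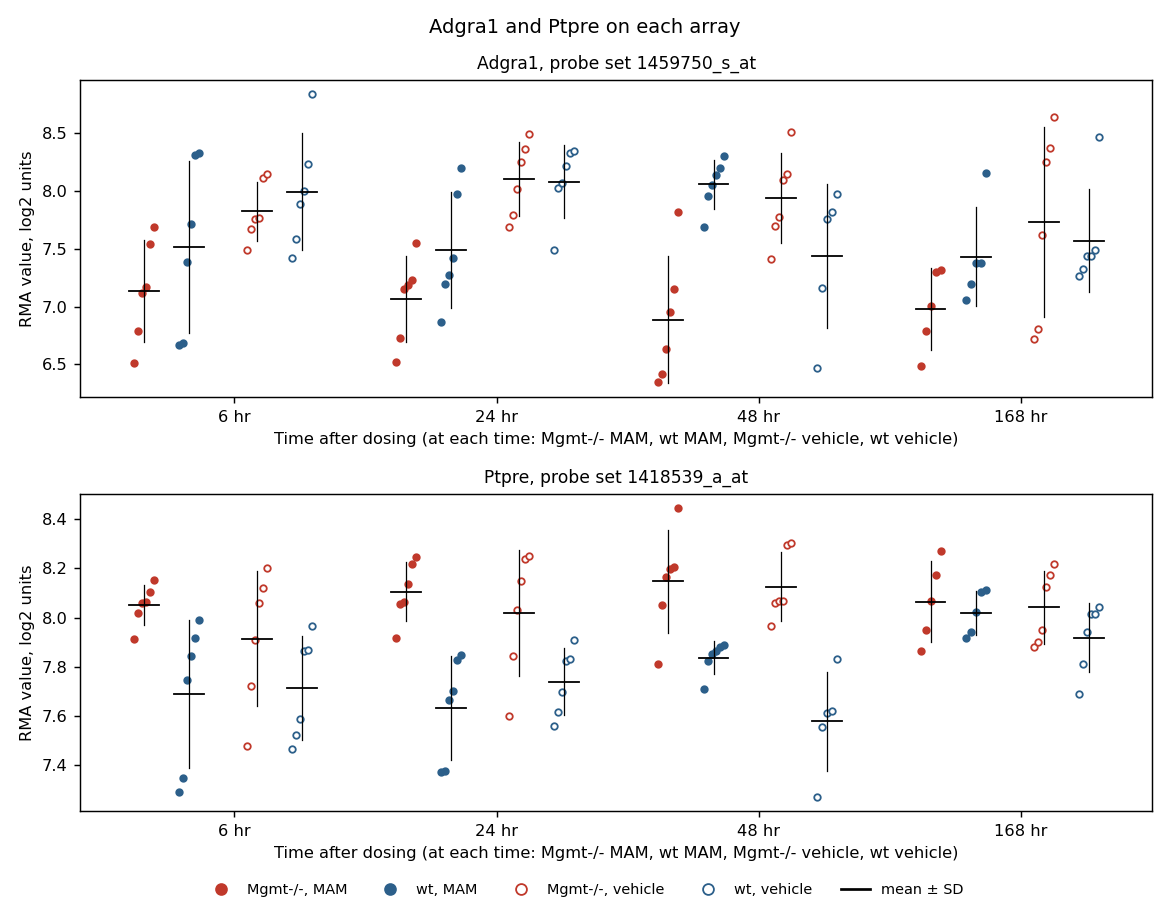
Deposited log2 values of Adgra1 (1459750_s_at) and Ptpre (1418539_a_at) on each array (y axis), by time after dosing (x axis), with MAM as filled and vehicle as open symbols and bars for the mean and SD. At 48 hr Adgra1 averaged 6.89 in Mgmt-/- and 8.05 in wt mice after MAM, and 7.94 in Mgmt-/- and 7.43 in wt mice in vehicle, while Ptpre means were higher in Mgmt-/- mice in all 8 pairs.

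MAM itself changed few members. In Mgmt-/- mice MAM against vehicle called 3 of 27 members at 6 hr (Cyp2e1 higher, Adgra1 and Ebf3 lower, 2.9% of all genes), 0 of 22 at 24 hr (1.06%), 1 of 35 at 48 hr (Adgra1, 0.827%) and 0 of 36 at 168 hr (0.853%). At 24 and 168 hr 3 of 31 and 6 of 59 member probe sets had an unadjusted p under 0.05 in limma. At 6 hr Ebf3 1460666_a_at was -0.38 after MAM relative to vehicle (SE 0.11, limma adjusted p = 0.040), and Adgra1 1429696_at was -0.74 (SE 0.22, limma adjusted p = 0.047). With the RNA index as a covariate no member was called at 6 or 48 hr, and the share of all genes called was not computed. At 6 hr in that fit Ebf3 was at -0.29 (adjusted p = 0.57), and Adgra1 1429696_at turned to 0.44 (adjusted p = 0.39). The calls at 6 hr were lost in 7 of 18 and 15 of 22 fits without 1 array, and both without the laboratory filter (adjusted p = 0.070 and 0.080). In the rest of the 24 fits without 1 array the laboratory filter set the probe set aside.
In wt mice MAM against vehicle called 0 members and 0% of all genes at 6, 24, 48 and 168 hr by limma. The smallest adjusted p of a member was 0.87, 0.63, 0.16 and 0.9997 in time order. Of the 43, 31, 56 and 59 member probe sets kept, 2, 1, 7 and 4 had an unadjusted p under 0.05 in limma. An ordinary linear model also called 0. The interaction called 0 members at 6 hr (0.217% of all genes), 0 at 24 hr (0.0772%), 2 of 35 at 48 hr (1.69%) and 0 at 168 hr (0.126%). Of the same 43, 31, 56 and 59 member probe sets, 6, 2, 10 and 4 had an unadjusted p under 0.05 in limma. The 2 members called at 48 hr were Adgra1 and Chst15. Chst15 1426514_at at 48 hr gave 5.76, 6.11 and 6.38 after MAM and 6.27, 6.49 and 6.71 in vehicle in Mgmt-/- mice. In wt mice it gave 6.16, 6.33 and 6.83 after MAM and 5.78, 5.94, 6.14, 6.15 and 6.43 in vehicle. All pairs of groups overlapped. The interaction was -0.74 (SE 0.18, limma adjusted p = 0.047), and the call was lost in 17 of 23 fits without 1 array.

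Cyp2e1, the ethanol-inducible cytochrome P450 and an abundant liver enzyme, lies 95 genes distal. Cyp2e1 was the only member called in the test of variation over the 8 combinations (limma F test, adjusted p = 0.039, 3.91% of all genes). In that test the Adgra1 probe sets 1429696_at and 1459750_s_at had adjusted p of 0.064 and 0.063, just above the threshold. At 6 hr after MAM it gave 4.69, 5.55 and 6.40 in Mgmt-/- mice and 4.31, 4.70 and 5.21 in wt mice (difference 0.87, SE 0.25, limma adjusted p = 0.017). In vehicle at 6 hr it gave 4.34, 4.54 and 4.77 in Mgmt-/- mice and 4.48, 5.03 and 5.90 in wt mice. MAM against vehicle in Mgmt-/- mice at 6 hr was 1.03 (SE 0.25, limma adjusted p = 0.016).
High values occurred in both genotypes and both treatments, and 3 of the 6 Mgmt-/- arrays at 6 hr after MAM read 5.96, 6.22 and 6.40. The highest 5 of the 93 were 6.40 (MGMT.MAM.6.949) and 6.22 (MGMT.MAM.6.329) in Mgmt-/- mice at 6 hr after MAM, 6.15 (MGMT.VEH.168.321) and 6.04 (MGMT.VEH.168.323) in Mgmt-/- mice at 168 hr in vehicle, and 6.28 (WT.MAM.48.139) in wt at 48 hr after MAM. On these arrays the 12 liver marker genes averaged 5.76, 6.17, 6.00, 5.75 and 5.81 in that order, against a median of 4.78 over the 93 arrays, and all 5 were among the 8 arrays with the highest liver marker mean. The genotype difference of the liver markers was 0.53 at 6 hr and 0.54 at 24 hr after MAM, where Cyp2e1 had 0.87 and 0.51. In vehicle the liver markers were at -0.46 at 6 hr and -0.50 at 24 hr, where Cyp2e1 had -0.59 and -0.45. Both differences had the same sign in 6 of 8 combinations. The liver markers ranged from 4.33 to 6.17 on Mgmt-/- arrays and from 4.41 to 7.07 on wt arrays. The wt array at 7.07 (WT.VEH.168.123, vehicle, 168 hr) had Cyp2e1 at 4.93. In the fit with the RNA index the difference at 6 hr after MAM was 0.89 (adjusted p = 0.38) and MAM against vehicle 1.04 (adjusted p = 0.34), neither of them called. Without MGMT.MAM.6.949 the difference at 6 hr after MAM was 0.70 (limma adjusted p = 0.055), and the variation over the 8 combinations had an adjusted p of 0.085. The part of liver RNA in the Cyp2e1 values was not tested.

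**Figure D5:**
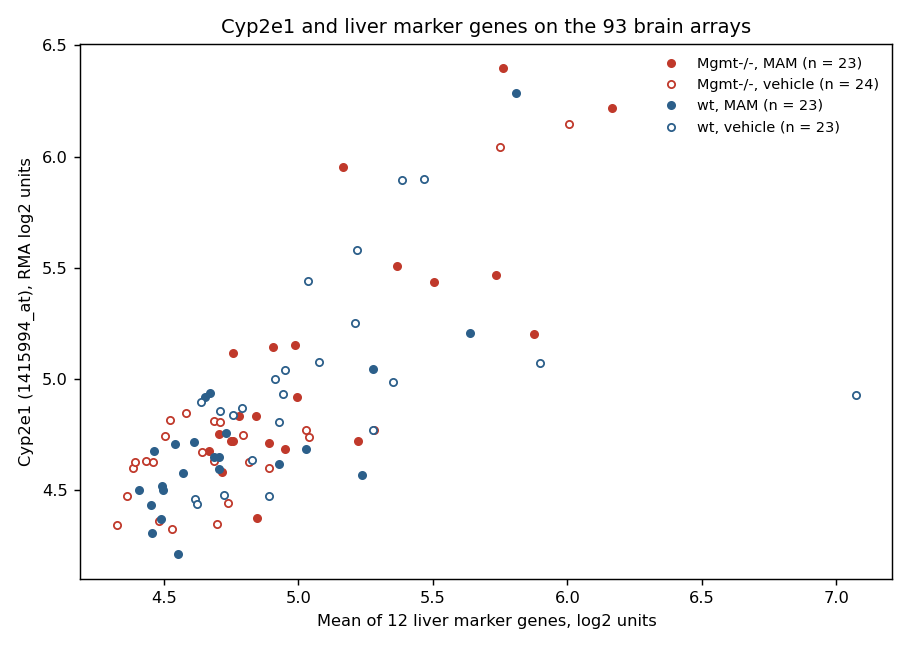
Cyp2e1 (1415994_at, y axis, log2 units) against the mean of 12 liver marker genes (x axis, log2 units) on the 93 brain arrays, with MAM as filled and vehicle as open symbols. The 5 arrays with the highest Cyp2e1, 6.04 to 6.40, are among the 8 with the highest liver markers, while the array with the highest liver markers of all, 7.07, has Cyp2e1 at 4.93.

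Beyond the members, 94 other genes within 150 annotated genes on either side of Mgmt were measured. In the averaged difference 5 of them (5.32%) were called, all lower in Mgmt-/- mice, against 7.85% of all genes called and 6.89% called lower. These were Tial1 at -0.65, Ate1 at -0.50, Inpp5f at -0.45 and Fgfr2 at -0.43, all proximal, and Gatd1 at -0.56, distal. These 5 lay over 100 annotated genes away, farther from Mgmt than any member.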

How the data were processed

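Total RNA of single half-brains was hybridized to Affymetrix Mouse Genome 430 2.0 arrays. The deposited values are log2 expression per probe set, background-corrected, quantile-normalized and summarized by RMA by the authors, who used affy, versions not given in the sources used here. RMA shrinks differences of dim probe sets. Probe sets were named from the platform annotation, and 932 that name several genes were set aside. The members, lists and tests were chosen with earlier results of these data known. Gene order and promoters came from RefSeq GRCm38.p6.

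Groups came from the labels. At each time point limma 3.58.1 (R 4.3.3) fitted genotype, treatment, their interaction and number set by lmFit and eBayes, with 2-sided tests. Probe sets whose effects differed between number sets (joint F test, p of 0.15 or less) were left out there, as the study's methods did. A second fit of all 93 arrays, without that filter, gave the differences averaged over combinations, their difference between number sets and their variation (F test). P-values were adjusted over all probe sets kept (Benjamini-Hochberg) and a gene was called at 0.05 and 1.3-fold. The array MGMT.MAM.168.343 was not fitted. The fits were also run on simulated data with independent noise and added genotype shifts. That checks the code only, as the simulation had no RNA index difference between genotypes and no genotype effect differing between number sets.

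Array values were given for Mgmt and for members called in a genotype or MAM comparison or interaction. Dpysl4, Fam53b and Zfp511, the others among the 10 with the largest averaged difference, were given by that difference alone. Up to 10 other genes of the region were named where the averaged difference was called. Every other member is accounted for by its value. Alternatives tried were other laboratory filters, number sets singly, cyclic loess, array weights, an unmoderated linear model, the RNA index as a covariate, a minimum mean of 6, the brightest probe set, no fold threshold, the liver array included, and each array left out. The number of arrays limits the precision. No genome sequence was used.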

Additional observations from a re-analysis of the deposited data

Results flagged for a closer look

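A single array stood apart from the rest of its group in 8 of 112 combinations of named probe set and group, where chance gives about 1 in 20. In Ebf3 1460666_a_at the wt array WT.MAM.24.133 at 24 hr after MAM read 4.74, with 5.71 the nearest, and in Ebf3 1428349_s_at the Mgmt-/- array MGMT.MAM.6.325 at 6 hr after MAM read 4.86, with 5.34 the nearest. In Echs1, the Mgmt-/- arrays MGMT.VEH.24.907 and MGMT.VEH.48.317 read 8.63 and 8.45, with 8.91 and 8.96 the nearest. In Ptpre 1418539_a_at WT.MAM.48.737 at 48 hr after MAM read 7.71, next to 7.82. In Adgra1 1429696_at WT.VEH.168.119 at 168 hr in vehicle read 8.16, next to 7.10. In Cyp2e1 WT.VEH.24.711 at 24 hr in vehicle read 5.90, next to 5.07, and WT.MAM.48.139 at 48 hr after MAM read 6.28, next to 4.68.

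Genotype differences that were themselves different between conditions were few. Between number sets, set 2 minus set 1 was 0.87 and 0.71 in the Adgra1 probe sets 1429696_at and 1459750_s_at and -0.45 in Ppp2r2d 1420034_at (limma adjusted p = 1.7e-06, 0.0012 and 4.8e-04). Between treatments at 48 hr, MAM minus vehicle was -1.71 in Adgra1 1459750_s_at and -0.74 in Chst15 1426514_at (limma adjusted p = 0.0082 and 0.047). Over the 8 combinations, Cyp2e1 varied with an adjusted p of 0.0386.

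On the array MGMT.MAM.168.343, left out of all fits for its liver RNA, Cyp2e1 read 12.96, against at most 6.40 on the other 93 arrays. Of the 73 member probe sets 9 read above every other array there and 22 below, and Echs1 read 11.01, against at most 9.56.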

How the results depend on the processing

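Ebf3 and Echs1 were called in the averaged genotype difference in all 93 fits that left out 1 array. The limits of these data are the number of arrays, the dim Ebf3 probe sets, the RNA index that ran with genotype, and the laboratory filter, which set Echs1 aside at 6, 24 and 168 hr. No paired analysis was possible because no animal number occurs in more than 1 group. Of 278 counts of called members under other settings 188 stayed within 1.5 times the count given above, and of 504 values of named genes 404 kept direction and call, 71 lost the call, 16 gained it and 13 changed sign. The causes were not tested, except where a setting leaves out probe sets or arrays by its construction. All counts below are of members called. The share of all genes called was not computed under these settings, so the counts are not read as results about the members. Fits of 1 number set have no laboratory filter. Their counts at single time points are therefore over all 39 measured members.

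With the RNA index as a covariate, the genotype counts were 2 in MAM and 4 in vehicle averaged over times, 0 at 24 hr and 1 at 48 hr in MAM, and 4 at 6 hr, 0 at 24 hr and 1 at 48 hr in vehicle. For MAM against vehicle, Mgmt-/- mice gave 0 at 6 hr, 0 at 48 hr and 1 at 168 hr, and the interaction at 48 hr gave 0. The averaged difference turned to 0.42 and 0.40 in the Adgra1 probe sets 1429696_at and 1459750_s_at, to 0.18 in Chst15 1426514_at and to -0.14 in Cyp2e1. In MAM alone the Adgra1 probe sets were at 0.17 and 0.14, and MAM against vehicle at 6 hr in Mgmt-/- mice for 1429696_at was 0.44.

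In number set 2 alone, the averaged genotype count was 4, with 5 in vehicle averaged over times, 14 at 6 hr, 6 at 24 hr and 1 at 168 hr in vehicle, and 7 at 24 hr and 2 at 168 hr in MAM. For MAM against vehicle, Mgmt-/- mice gave 5 at 6 hr, 3 at 24 hr, 0 at 48 hr and 2 at 168 hr, and in wt mice 1 at 24 hr and 2 at 48 hr. The interaction gave 0 at 48 hr and 1 at 168 hr, and 13 members varied over the 8 combinations. Changed signs of the averaged difference were 0.13 and 0.11 for the Adgra1 probe sets, 0.0101 for Chst15 and 0.0727 for Mgmt. In number set 1 alone, the genotype counts were 4 in vehicle averaged over times, 2 at 6 hr, 0 at 24 hr, 0 at 48 hr and 2 at 168 hr in vehicle, and 1 at 24 hr and 2 at 48 hr in MAM. MAM against vehicle in Mgmt-/- mice gave 1 at 6 hr and 2 at 24 hr, the interaction at 48 hr gave 1, 0 varied, and Ppp2r2d 1420034_at was at 0.21.

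With the brightest probe set of each gene, the genotype counts were 1 averaged, 1 in MAM and 0 in vehicle averaged over times, 0 at 24 hr and 4 at 48 hr in MAM, 0 at 6 hr, 0 at 24 hr and 1 at 48 hr in vehicle, and 0 between number sets. MAM against vehicle in Mgmt-/- mice gave 1 at 6 hr and 0 at 48 hr, and the interaction at 48 hr gave 0. With probe sets of a mean of at least 6, they were 1 averaged, 2 in MAM and 0 in vehicle averaged over times, 0 at 24 hr and 4 at 48 hr in MAM, 0 at 6 hr and 0 at 24 hr in vehicle, and 1 between number sets, with 1 for MAM against vehicle in Mgmt-/- mice at 6 hr. With no fold threshold, they were 29 averaged, 25 in MAM and 18 in vehicle averaged over times, 8 at 6 hr and 12 at 48 hr in MAM, 2 at 6 hr in vehicle, and 7 between number sets.

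Without the laboratory filter, genotype counts were 5 at 24 hr in MAM and 3 at 6 hr in vehicle, and MAM against vehicle in Mgmt-/- mice gave 1 at 6 hr and 1 at 24 hr. With the filter on each interaction, they were 1 at 24 hr and 4 at 48 hr in MAM and 0 at 24 hr and 1 at 48 hr in vehicle, with 1 at 6 hr and 0 at 48 hr for MAM in Mgmt-/- mice. With the filter on the averaged interaction, 0 members differed between number sets. The ordinary linear model gave genotype counts of 1 at 24 hr in MAM and 1 at 48 hr in vehicle, 1 at 6 hr and 0 at 48 hr for MAM in Mgmt-/- mice, 1 for the interaction at 48 hr and 0 for variation. Array weights gave 2 in vehicle averaged over times, 1 for MAM in wt mice at 48 hr, 1 at 6 hr and 4 at 48 hr for the interaction, 13 for variation, and 0.0278 for the averaged difference of Chst15 1426514_at. Cyclic loess gave 1 for the interaction at 48 hr. With the liver array, 0 members varied and Cyp2e1 had an adjusted p of 0.74.

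Leaving out each array in turn, the averaged genotype count lay between 2 and 3, with 3 to 5 in MAM and 1 in vehicle, 2 between number sets and 0 to 3 for variation. Genotype counts lay at 2 to 5, 1 to 3, 3 to 7 and 0 to 1 in MAM and at 0 to 2, 1 to 2, 0 to 2 and 0 in vehicle, at 6, 24, 48 and 168 hr. MAM against vehicle in Mgmt-/- mice gave 1 to 3, 0, 0 to 1 and 0, and in wt mice 0, 0, 0 to 1 and 0. The interaction gave 0 to 1, 0, 0 to 4 and 0. The lowest genotype count at 48 hr in MAM, 3, was without MGMT.MAM.48.337. Of 3400 values of named genes in these fits 87 lost their call, 19 gained one and 0 changed sign. Fits in which the laboratory filter set the probe set aside gave no value and are not counted.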
